A study of Saccharomyces cerevisiae with 50 samples.

Results

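The large ribosomal subunit of budding yeast was followed through 60 of its protein genes, out of the 5743 genes counted for mRNA in the deletion strains. The members were the cytosolic genes from RPL1A to RPL39, found by their systematic identifiers. The RPL6, RPL7, RPL9 and RPL15 pairs, of each of which 1 copy had been deleted in a strain of the study, were left out. Of the members, 50 formed 25 pairs of A and B copies and 10 were encoded by a single gene (RPL3, RPL5, RPL10, RPL25, RPL28, RPL29, RPL30, RPL32, RPL38 and RPL39). The copies on which the results turn are RPL22A (YLR061W) and RPL22B (YFL034C-A), RPL8A (YHL033C) and RPL8B (YLL045C), RPL1A (YPL220W) and RPL1B (YGL135W), and RPL14A (YKL006W) and RPL14B (YHL001W). All 60 were counted in every table and passed the filter on low counts in every comparison.

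Ribosomal proteins fold the ribosomal RNA, line the tunnel through which the new protein leaves and form the stalks that guide tRNAs and elongation factors. In yeast their genes are transcribed together as one of the largest expenditures of a growing cell, through the factors Rap1, Fhl1, Ifh1 and Sfp1, and they are turned down in concert when nutrients are short. Most of them were kept as duplicates after an ancient doubling of the yeast genome, and both copies of a pair encode the same or nearly the same protein.

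The strains were derived from BY4741. Their mRNA was sequenced, and so were the fragments of mRNA covered by ribosomes, called footprints (Ribo-seq). The wild type (MATa his3Δ1 leu2Δ0 met15Δ0 ura3Δ0) was compared with haploids of the same markers in which kanMX4 replaced RPL7A, RPL9A, RPL6A, RPL15B or RPS27B. Each strain had 3 libraries per assay, apart from Δrpl6a Ribo-seq with 2. For mRNA only, 3 libraries each came from PADH1-GCN4 and from PADH1-GCN4S242L (S242L for short), with their wild type, and from PGAL-GST-GCN4, with a wild type carrying a plasmid. PADH1-GCN4 (gcn4::kanMX4-promADH1-GCN4) had the ADH1 promoter at the chromosomal GCN4 gene, which encodes the transcription factor that activates amino acid synthesis genes. S242L had the same construct with a substitution in Gcn4. Both, like their wild type, were MATa his3Δ1 leu2Δ0 ura3Δ0 with MET15 restored. PGAL-GST-GCN4 carried a GST-Gcn4 fusion under a galactose-inducible promoter on the 2μ URA3 plasmid pEGH, and its control carried the 2μ URA3 plasmid pRS426. Every deletion strain was compared with the same wild-type libraries, so comparisons that share them are not independent of each other.

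The targeted genes had few mRNA reads in the strains named for them. RPL7A had 23 to 32 mRNA reads in Δrpl7a against 12941 to 14959 in the wild type, RPL9A 20 to 37 against 11420 to 15821, RPL6A 10 to 21 against 9362 to 9912, RPL15B 4 to 7 against 324 to 420 and RPS27B 9 to 19 against 3513 to 5198. In footprints RPL15B kept 93 to 180 reads in Δrpl15b against 674 to 904, and the others 11 to 230 against at least 14600. GCN4 mRNA was raised by 1.86 on the log2 scale in PADH1-GCN4, by 2.42 in S242L and by 5.32 in PGAL-GST-GCN4. Libraries held 5709195 to 25642672 counted reads. In these bulk samples a lower count can come from fewer cells expressing a gene or from less RNA per cell, and these cannot be told apart.

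The copies of a pair differ little in sequence, which decides how well reads can be told apart. The coding sequences of the 25 pairs were 79.1 to 99.4% identical, and 8 pairs encoded identical proteins. The RPL22 pair was the least alike. Its proteins, which bind RNA on the outer surface of the subunit and are dispensable for growth, were 84.4% identical. The pair shared none of its 28-base windows, the length of the shortest footprint. Bases 13 to 102 of the coding sequences, the start of the second coding exon, are shown because the RPL22 copies were among those that moved furthest apart in the data. They lie at chrXII:263595-263684 on the plus strand (RPL22A) and chrVI:64510-64599 on the minus strand (RPL22B) of the RefSeq R64 genome, with the 17 differing bases in capitals.
RPL22A: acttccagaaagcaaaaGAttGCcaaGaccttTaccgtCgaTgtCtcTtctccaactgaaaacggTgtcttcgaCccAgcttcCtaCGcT
RPL22B: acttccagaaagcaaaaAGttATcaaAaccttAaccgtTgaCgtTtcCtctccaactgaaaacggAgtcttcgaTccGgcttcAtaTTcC
The first 90 coding bases of RPL8A (chrVIII:35936-36025, minus strand) and RPL8B (chrXII:48540-48629, minus strand) differ at 6 positions, again in capitals. Rpl8 binds early to the pre-ribosomal RNA, and its copies shared 23.4% of their 28-base windows.
RPL8A: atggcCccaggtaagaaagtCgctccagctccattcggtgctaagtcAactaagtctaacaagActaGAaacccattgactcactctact
RPL8B: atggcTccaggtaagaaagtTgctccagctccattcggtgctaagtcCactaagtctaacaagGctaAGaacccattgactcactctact
The RPL1 copies, which form the stalk beside the exit site of tRNAs, encode identical proteins. They differ at only 4 coding bases, at positions 6, 15, 171 and 339 from the start codon, and shared 88.7% of their 28-base windows. Their first 90 coding bases (RPL1A chrXVI:135790-135879, RPL1B chrVII:254641-254730, both plus strand) hold 2 of these 4.
RPL1A: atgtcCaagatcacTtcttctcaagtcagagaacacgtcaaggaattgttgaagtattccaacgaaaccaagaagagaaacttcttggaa
RPL1B: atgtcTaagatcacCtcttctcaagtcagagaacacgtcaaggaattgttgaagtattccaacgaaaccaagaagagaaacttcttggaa
Only reads that aligned to a single place were counted, so the counts of such copies rest on short stretches. This bears on RPL1, RPL35 and RPL4 above all, whose copies shared 88.7, 86.0 and 82.9% of their 28-base windows.

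In wild-type cells the members took 9.93% of all mRNA counts and 9.78% of all footprint counts. Their mRNA levels, as counts scaled to a common library size (CPM) per kilobase of coding sequence, ran from 300 for RPL22B to 21939 for RPL39, which encodes the smallest protein of the set, at the end of the exit tunnel. The highest level was 73.2 times the lowest, and the median was 2958 CPM per kilobase. RPL39 was followed by RPL38, with 15497 ± 758 (SD, n = 3) CPM per kilobase, and by RPL31A, with 11383 ± 2455. The low end held RPL22B (300 ± 12.9), RPL4B (504 ± 22.6) and RPL18B (576 ± 3.64). Footprint levels spanned less, from 394 CPM per kilobase (RPL4B) to 10576 (RPL39). The wild-type ratio of footprints to mRNA had a log2 median of 0.05 over the members, beside -0.52 over all genes. It ran from -1.13 for RPL38 to 1.31 for RPL23A. By the methods of the study only Ribo-seq counting was limited to coding regions. The mRNA levels and these ratios can thus include reads outside the coding sequence, which weigh more in short genes. The part of such reads was not tested.

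How equally the copies of a pair were used differed widely between pairs. RPL2 (47.1%), RPL37 (53.3%) and RPL20 (54.4%) were among those with A shares of wild-type mRNA counts near equal use. The A copy took 24.5% ± 1.12 (SD, n = 3) of the pair's wild-type mRNA counts in RPL1, 30.1% ± 0.82 in RPL13 and 30.7% ± 1.86 in RPL16. At the other end it took 86.4% ± 0.46 in RPL31 and 96.0% ± 0.18 in RPL22. These shares are from the wild type of the deletion strains, where they varied little between libraries compared with the differences between pairs. Some differed in the wild type of the ADH1 promoter strains and the plasmid control. RPL36 had 31.5% in the first, 15.7% in the second and 22.8% in the third. RPL11 had 70.8, 52.8 and 65.7%, and RPL22 96.0, 94.6 and 84.4%. RPL1 was closer, with 24.5, 29.1 and 24.5%. In the latter 2 wild types RPL36 had the lowest A share. In footprints the order was partly kept, with A shares of 37.5% for RPL1, 76.0% for RPL31 and 92.6% for RPL22. The largest shifts of share between the assays included RPL1 itself, RPL2 (47.1% of mRNA and 36.1% of footprints) and RPL33 (56.0% and 66.4%). The assays differ in read length and in the regions counted, and the part of this in the shifts was not tested.

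**Figure D1:**
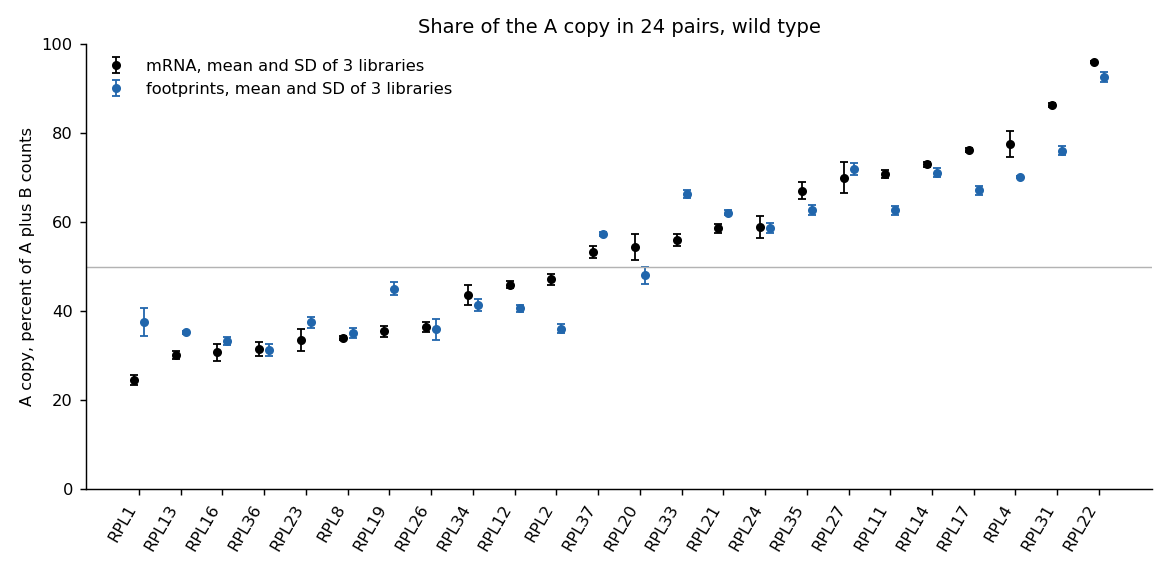
Share of the A copy in the counts of 24 of the 25 pairs, in percent, in mRNA and footprint libraries of the wild type of the deletion strains, as means with the SD of 3 libraries, with pairs ordered by their mRNA share. The pairs run from RPL1, with 24.5% of mRNA counts from the A copy, to RPL22, with 96.0%.

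The first question was how the loss of another ribosomal protein gene changed these mRNAs. In Δrpl7a nearly the whole set fell. In a quasi-likelihood fit in edgeR, with p-values adjusted by Benjamini-Hochberg over all genes, 58 of the 60 members were lower at an adjusted p below 0.01 and none was higher (0 at an unadjusted p below 0.05 and 0 by DESeq2), where 20.5% of all genes tested were lower and 24.3% higher. Of these, 22 fell by more than 2-fold, against 6.36% of all genes. The median log2 change was -0.92, with a spread (SD) of 0.30 over the members beside 1.02 over all genes. The 54 small-subunit genes had a median of -1.05 with 50 lower, and the 21 other large-subunit genes, the deleted ones included, a median of -0.87 with 18 lower and 1 higher. For 59 members all Δrpl7a libraries lay below all wild-type libraries, which held for 29.2% of genes. The members' share of mRNA counts was 6.0% in place of 9.93%.

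Every structural group took part in Δrpl7a. All 18 shell proteins that join the subunit early were lower (median -0.99), as were all 4 stalk genes (-1.08), all 3 genes of the complex around the 5S rRNA (-0.73) and all 12 genes of the remaining group of outer and small proteins (-0.91). Among genes of the exit tunnel 13 of 14 were lower, with a median of -0.67, and among those of the subunit interface and late assembly 8 of 9 were lower, with a median of -0.88. The exceptions were RPL4A, whose product reaches into the exit tunnel (-0.19, SE 0.13, adjusted p = 0.24), and RPL29 (-0.79, adjusted p = 0.011). RPL4A had 2084, 2076 and 1610 CPM in the wild type and 1629, 1724 and 1711 in Δrpl7a, so its groups overlapped. RPL3, a core protein near the catalytic centre, fell by 0.40 on the log2 scale, and RPL4B fell by 0.49.

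The minor copies RPL22B and RPL8A moved most in Δrpl7a. RPL22B mRNA was at 105, 114 and 112 CPM in the wild type and at 15.4, 23.4 and 38.2 in Δrpl7a (log2 change -2.09, SE 0.29, adjusted p = 1.7e-05). RPL8A went from 1116, 1177 and 1066 CPM to 299, 347 and 418 (-1.66, SE 0.20, adjusted p = 4.7e-06). Neither gene had a Δrpl7a library within reach of the wild type. The next largest falls were those of RPL23A (-1.29) and RPL1A (-1.27). The partner copies fell less: RPL8B was at 2227, 2260 and 2049 CPM in the wild type and at 1130, 1263 and 1475 in Δrpl7a (-0.76), and RPL22A at 2498, 2655 and 2840 against 1052, 1043 and 1312 (-1.23). The A share of RPL8 therefore dropped from 34.0 to 21.5% and that of RPL22 rose from 96.0 to 97.8%. The RPL26 pair, at the mouth of the tunnel, shifted by 0.52 in log2(A/B), from 36.4 to 45.1% A. Over all 25 pairs the median size of the shift was 0.15, and in 24 of them both copies were lower.

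In Δrpl9a fewer members passed in the main fit, which did not pair libraries by replicate number, and the libraries disagreed. 11 members were lower and none higher (6.32 and 11.8% of all genes), with 1 higher at an unadjusted p below 0.05 and 0 by DESeq2. Of the lower ones 2 fell by more than 2-fold (1.18% of genes), and the median was -0.43. Among small-subunit genes 17 were lower with a median of -0.51, and the other large-subunit genes a median of -0.32 with 4 lower and 1 higher. The groups did not overlap, on the lower side, for 27 members (20.5% of genes). Relative to the wild-type mean the median member stood at -0.64, -0.61 and -0.10 on the log2 scale in the 3 libraries, so that replicate 3 was apart. This was not particular to Δrpl9a. In the wild type and every deletion strain, mRNA replicate 3 was the least like the others by chi-square per gene, which is larger when libraries differ more. Between replicates 1 and 2 it was 6.06 in Δrpl9a and 3.84 in the wild type. Against replicate 3 it was 82.6 and 78.8 in Δrpl9a, and 27.6 and 23.9 in the wild type. When Δrpl9a replicate 3 was left out, 37 members were lower. Without any other 1 of the wild-type or Δrpl9a libraries the count was 2 to 7. It was 2 without Δrpl9a replicate 1, 3 without Δrpl9a replicate 2 or wild-type replicate 1 or 2, and 7 without wild-type replicate 3. The fit blocked by replicate number, which pairs the libraries, gave 30 lower in Δrpl9a and 59 in Δrpl7a.

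The members that fell furthest in Δrpl9a were again RPL8A and RPL22B. RPL8A mRNA was at 259, 291 and 494 CPM in Δrpl9a (-1.68, SE 0.20, adjusted p = 1.8e-05), and RPL22B at 28, 29.4 and 47.3 CPM (-1.66, SE 0.28, adjusted p = 0.00034). Both lay below every wild-type library given above, replicate 3 included. RPL14B, the minor copy of another early shell protein, came next (-0.91), with 152, 152 and 258 CPM beside 355, 356 and 348 in the wild type. At the upper end stood RPL4A (0.30), RPL3 (0.08) and RPL5 (-0.12), none of which passed. RPL8B was at 1666, 1766 and 2081 CPM, the last of these within the wild-type range (-0.25), and the A share of RPL8 was 15.6% in place of 34.0%. RPL22A was at 1407, 1431 and 2270 CPM (-0.65), which left the RPL22 pair with 98.0% of A. In RPL4, the third of the pairs that shifted most, the A share was 83.1% in place of 77.6%. Of the 25 pairs, 11 had 1 copy lower and 14 had neither.

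**Figure D2:**
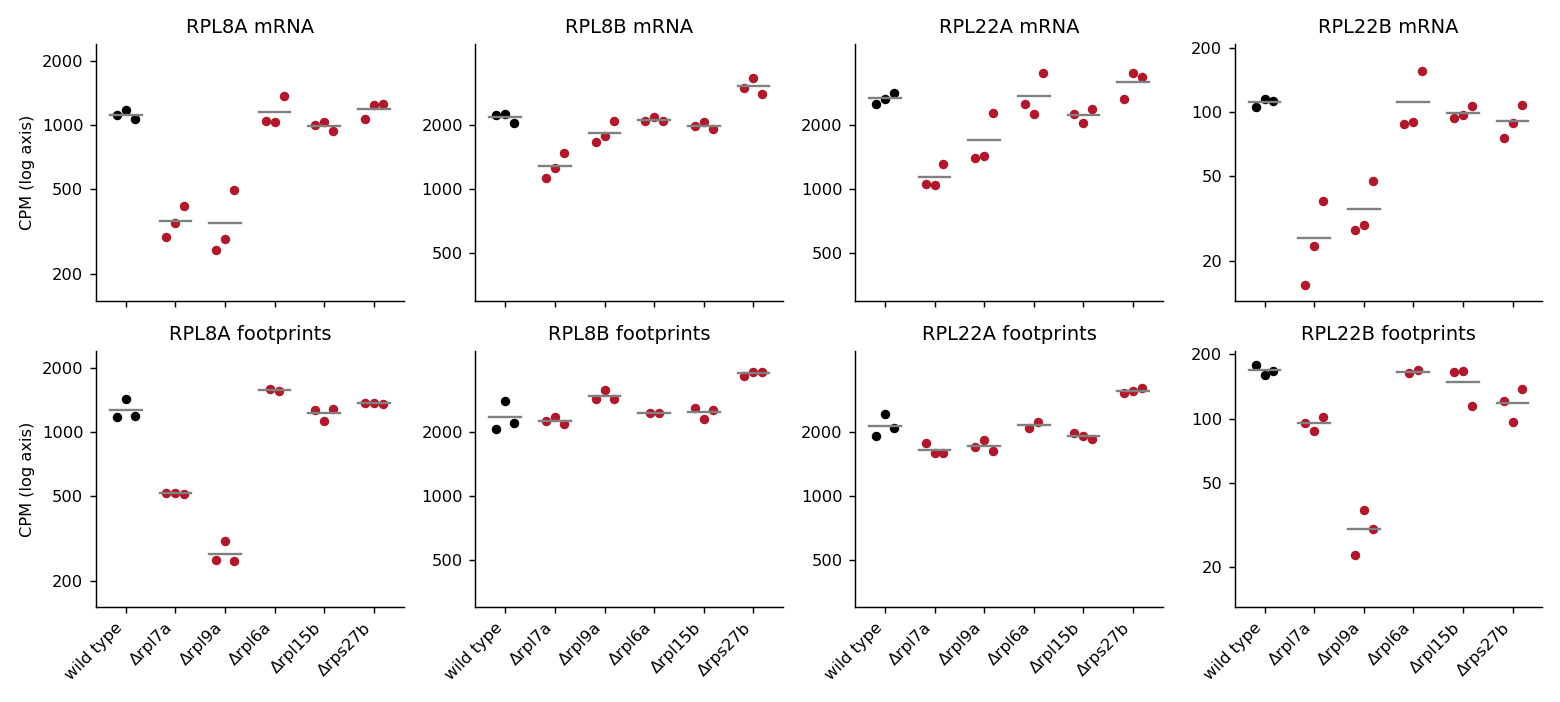
Scaled counts (CPM, log axis) of RPL8A, RPL8B, RPL22A and RPL22B in each wild-type and deletion strain library, for mRNA (upper row) and footprints (lower row), with grey lines at group means. RPL8A and RPL22B sit below every wild-type library in Δrpl7a and Δrpl9a in both assays, while RPL8B footprints stay at or above the lowest wild-type library.

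Footprints of the members in these strains had medians closer to 0 than their mRNA. In Δrpl7a 12 members were lower and 3 higher (14.9 and 15.1% of all genes), the median was -0.13, and the members took 9.39% of footprint counts. Small-subunit genes had 9 lower, 3 higher and the same median. All 12 that were lower had lower mRNA too, among them RPL8A, both RPL22 copies and the single-copy genes RPL3, RPL5, RPL25, RPL30 and RPL32. RPL8A footprints were at 1169, 1422 and 1187 CPM in the wild type and at 518, 516 and 509 in Δrpl7a (-1.29, SE 0.09, adjusted p = 5.2e-10). RPL22B went from 178, 159 and 168 CPM to 95.5, 87.8 and 102 (-0.82), and RPL18B changed by -0.63. RPL36A (0.41), RPL14B (0.38) and RPL27B (0.32) were the members with more footprints. RPL36A had 746, 788 and 619 CPM of wild-type mRNA against 363, 286 and 397 in Δrpl7a, but 547, 616 and 595 CPM of footprints against 789, 852 and 698. It was thus lower in one assay and higher in the other without overlap. RPL8A alone changed by over 2-fold (2.17% of genes). The count of lower members was 7 without wild-type replicate 2 or without Δrpl7a replicate 2.

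In Δrpl9a footprints the spread between members was wide around a median of 0.03. Here 10 members were lower (9.94% of genes) and 8 higher (10.8%), and 4 of the lower ones exceeded 2-fold (2.08%). The SD over the members was 0.53, against 0.63 over all genes and 0.27 over the small-subunit genes, of which 3 were lower and 2 higher. RPL22B footprints were at 22.8, 37.3 and 30.4 CPM (-2.48, SE 0.16, adjusted p = 9.7e-10) and RPL8A footprints at 250, 306 and 247 CPM (-2.24, SE 0.09, adjusted p = 4.3e-13), far under the wild-type values given above. RPL18B (224, 264 and 291 CPM in the wild type, 103, 133 and 118 in Δrpl9a, -1.14) and RPL1B (758, 722 and 946 against 379, 423 and 368, -1.05) were next. In all 4 genes the groups were apart. Of the members, 13 lay below the wild type without overlap (19% of genes) and 18 above it (20.9%). The other copies held their footprints: RPL8B had 2862, 3159 and 2862 CPM against 2062, 2776 and 2200 (0.34, passing), and RPL1A had 439, 471 and 444 against 445, 500 and 502 (-0.10, not passing). The A share of RPL8 was 8.26% in place of 35%, that of RPL22 98.3% in place of 92.6%, and that of RPL1 53.7% in place of 37.5%. For RPL1 these shares rest on the few bases shown above. RPL36A (0.56), RPL37B (0.44) and RPL24A (0.37), a late-joining protein of the subunit interface, rose most. With 1 library left out, the lower count was 6 to 11 (6 without wild-type replicate 2, Δrpl9a replicate 1 or Δrpl9a replicate 3), and the higher count was 4 to 12 (4 without wild-type replicate 1).

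Translation efficiency, the footprint change minus the mRNA change on the log2 scale, was tested as an interaction term. Both assays were scaled within libraries, so a change in total protein synthesis does not show in it. The study found total synthesis reduced in Δrpl7a and Δrpl9a, and the levels of ribosomal proteins reduced as well. From these protein levels it concluded that translation efficiency had not made up for the lower ribosomal mRNA. Protein was not examined here. In Δrpl7a 49 members were higher (14.9% of genes) and none lower (15.6% of genes, 0 members at an unadjusted p below 0.05 and 0 by DESeq2), with a median of 0.79. 15 of them were higher by over 2-fold (5.21%). RPL36A (1.47), RPL14B (1.38) and RPL23B (1.35) led, and RPL4A (-0.12), RPL3 (0.12) and RPL4B (0.15) showed the smallest values, none of the latter passing. In Δrpl9a 17 were higher (6.35% of genes) and 1 lower (9.91%), with a median of 0.44. RPL36A (1.12) and RPL14B (1.02), the 2 beyond 2-fold (1.75% of genes), led again with RPL14A (0.91), and RPL4A (-0.65) was the lower one. RPL22B (-0.81, adjusted p = 0.065) and RPL1B (-0.56) did not pass. The small-subunit genes had medians of 0.96 in Δrpl7a, with 44 higher, and 0.46 in Δrpl9a, with 9 higher. Footprints had changed more positively than mRNA for 59 members in Δrpl7a and 53 in Δrpl9a. The Δrpl9a count was 39 without mRNA replicate 3, 10 without mRNA replicate 1 or 2, wild-type footprint replicate 1 or Δrpl9a footprint replicate 2, and 11 without wild-type mRNA replicate 2. With the replicate block it was 29.

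**Figure D3:**
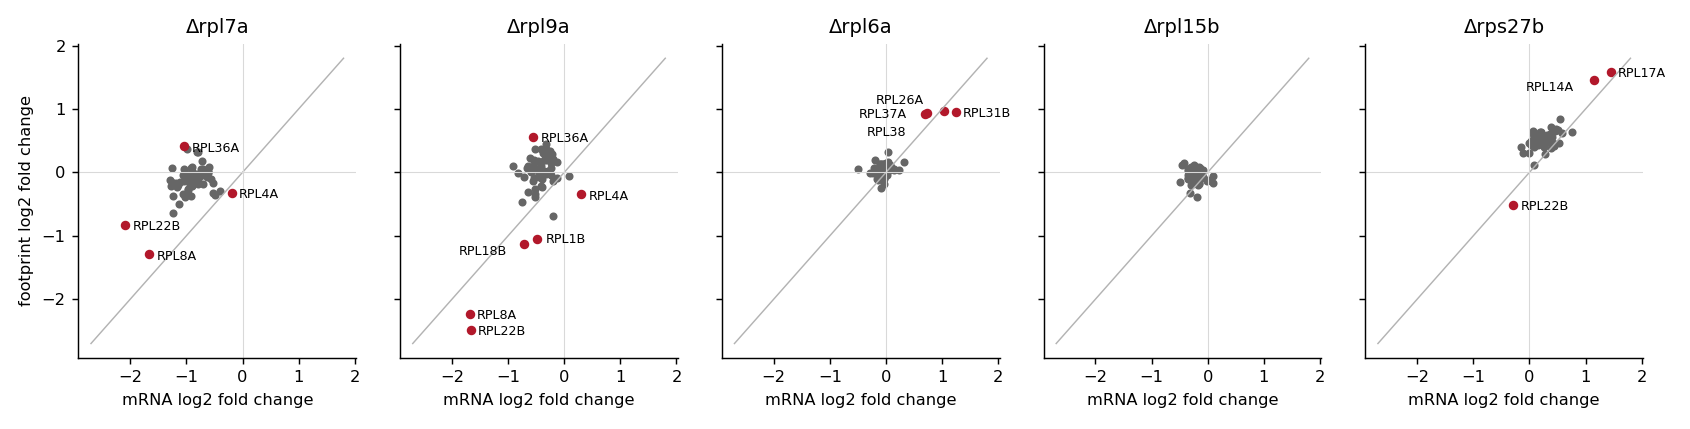
Log2 change of footprints (vertical) against that of mRNA (horizontal) for the 60 members in each deletion strain relative to the wild type, 1 point per member, with a diagonal line where both changes are equal and named members in red. In Δrpl7a the members lie near a footprint change of -0.13 at an mRNA change around -0.92, with RPL8A and RPL22B low on both axes.

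Deletion of the small-subunit gene RPS27B went with more footprints on the members. 56 of the 60 had higher footprint counts (19.2% of all genes were higher) and 1 was lower (18.3%), and 2 rose by over 2-fold (3.54%). The median was 0.49, and the quartiles, 0.46 and 0.60, lay close together. All Δrps27b libraries exceeded all wild-type libraries for 58 members (28.1% of genes), and the members took 13.3% of footprint counts. The medians of the structural groups lay between 0.46 and 0.55, and the small-subunit genes had 45 higher, 5 lower and a median of 0.50. The other large-subunit genes had 18 of 21 higher and a median of 0.55. All 10 single-copy genes were among those that rose, with a median of 0.63. RPL3 was at 5480, 6373 and 5664 CPM in the wild type and at 8835, 9192 and 9028 in Δrps27b (0.63). RPL29, a small late-joining protein, had the largest rise outside chromosome XI, from 1296, 1576 and 1489 CPM to 2561, 2651 and 2620 (0.84). RPL28, the protein altered in some cycloheximide-resistant strains, went from 3369, 3798 and 3552 CPM to 5185, 5131 and 5227 (0.54). All 3 genes were clear of the wild-type range.

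4 members were not among the higher ones in Δrps27b footprints. RPL8A (0.11), RPL4B (0.28) and RPL1B (0.39) had positive changes that did not pass, and RPL22B was lower (-0.51, adjusted p = 0.0078), at 121, 96.0 and 137 CPM beside 178, 159 and 168 in the wild type. RPL22A rose over the same libraries, from 1902, 2425 and 2088 CPM to 3037, 3104 and 3205 (0.54), and RPL8B from 2062, 2776 and 2200 to 3653, 3808 and 3820 (0.68). In 21 pairs both copies were higher and in 3 only 1 passed. RPL22 was the only pair with copies called in opposite directions, and its lower call was lost in the fit with the replicate block.

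The mRNA of the members in Δrps27b showed a smaller shift of the same sign. 7 members were higher (8.29% of genes), 2 of them by over 2-fold (4.1%), and none was lower (5.52% of genes, with 0 members at an unadjusted p below 0.05 and 0 by DESeq2). The median was 0.25, and 33 members lay above the wild type without overlap (22.7% of genes). The 7 were RPL5 (0.45), RPL8B (0.48), RPL39 (0.50), RPL3 (0.58), RPL4A (0.76), RPL14A (1.15) and RPL17A (1.45). Of the small-subunit genes 2 were lower and none higher, with a median of 0.14. No member passed for translation efficiency (median 0.28) by edgeR, where 4.91% of genes were higher and 6.69% lower, with 14 members higher and 0 lower at an unadjusted p below 0.05 (16.5% of genes were higher), 0 by DESeq2 and 3 in the blocked fit. Without wild-type replicate 1, wild-type replicate 2 or Δrps27b replicate 2 the mRNA count was 3, and without wild-type replicate 3 it was 4.

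RPL14A and RPL17A, the members with the largest rise in Δrps27b, are the 2 on chromosome XI. RPL17A mRNA, which encodes a protein around the tunnel exit, went from 2892, 2862 and 2399 CPM to 7374, 8169 and 6764, and its footprints from 2135, 2546 and 2412 to 6950, 7205 and 7206 (1.59). RPL14A mRNA went from 990, 961 and 917 CPM to 1997, 2043 and 2332, and its footprints from 873, 1044 and 947 to 2529, 2718 and 2595 (1.45). Both were far outside the wild-type range. The same held for most genes tested on chromosome XI: 234 of 302 had higher mRNA with a median of 0.95, and 236 of 299 had more footprints with a median of 0.90. With the genes of chromosomes XI and XII left out of the scaling and the fit, the members' median was 0.27 in mRNA and 0.52 in footprints. The part of the chromosome-wide shift in the values of these 2 genes was not tested. The partner copies RPL17B and RPL14B lie elsewhere and had mRNA changes of 0.25 and 0.07. The A share of mRNA was 88.0% in place of 76.2% for RPL17 and 85.2% in place of 73.0% for RPL14.

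In Δrpl6a the median of the members stayed near 0, and the calls lay in 1 stretch of chromosome XII. The median mRNA change was -0.03, 3 members were higher (8.03% of genes), 2 of them by more than 2-fold (3.99%), and none was lower (3.61% of genes). At an unadjusted p below 0.05 1 was lower, DESeq2 gave 0 lower and the blocked fit 1. All 3 lie to the right of the ribosomal DNA array. RPL31B went from 694, 681 and 463 CPM to 1455, 1425 and 1477 (1.24), RPL26A from 628, 664 and 556 to 1188, 1124 and 1471 (1.03) and RPL37A from 1042, 1066 and 901 to 1548, 1402 and 2040 (0.73). The fourth member there, RPL38, went from 3880, 3567 and 3571 CPM to 6172, 4736 and 6904 (0.69, adjusted p = 0.017). For all 4 the groups were apart. Of the members, 6 lay above the wild type without overlap, which held for 22.3% of genes. Of all genes tested to the right of the array 192 of 267 were higher, with a median of 0.93, and those to the left had a median of -0.01. The members to the left, RPL8B (-0.04), RPL22A (0.04) and RPL10 (0.01), were at the wild-type level, and the 51 members on chromosomes other than XI and XII had a median of -0.05. In footprints the same 4 were the only members higher (6.8% of genes), between 0.91 and 0.97, with RPL38 at 3094 and 3247 CPM in Δrpl6a beside 1653, 1740 and 1655. The members' footprint median was 0.06, none was lower (3.41% of genes; 0 at an unadjusted p below 0.05 and 0 by DESeq2), and 197 of 256 genes right of the array were higher with a median of 0.94. With both chromosomes (XI and XII) left out, the members' median was -0.02 in mRNA and 0.07 in footprints. As for chromosome XI, the part of the shift of all genes right of the array in the 4 members was not tested. The small-subunit genes showed 5 higher in mRNA and 6 in footprints, with medians of -0.03 and 0.08. The 3 largest shifts of A share were those of the pairs with a copy right of the array. RPL26 had 56.2% in place of 36.4% and RPL37 65.8% in place of 53.3%. RPL31, whose B copy lies there, had 74.0% in place of 86.4%. For translation efficiency the median was 0.09 and no member passed by edgeR (1.41% of genes were higher and 2.48% lower), with 1 higher at an unadjusted p below 0.05 and 0 by DESeq2.

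**Figure D4:**
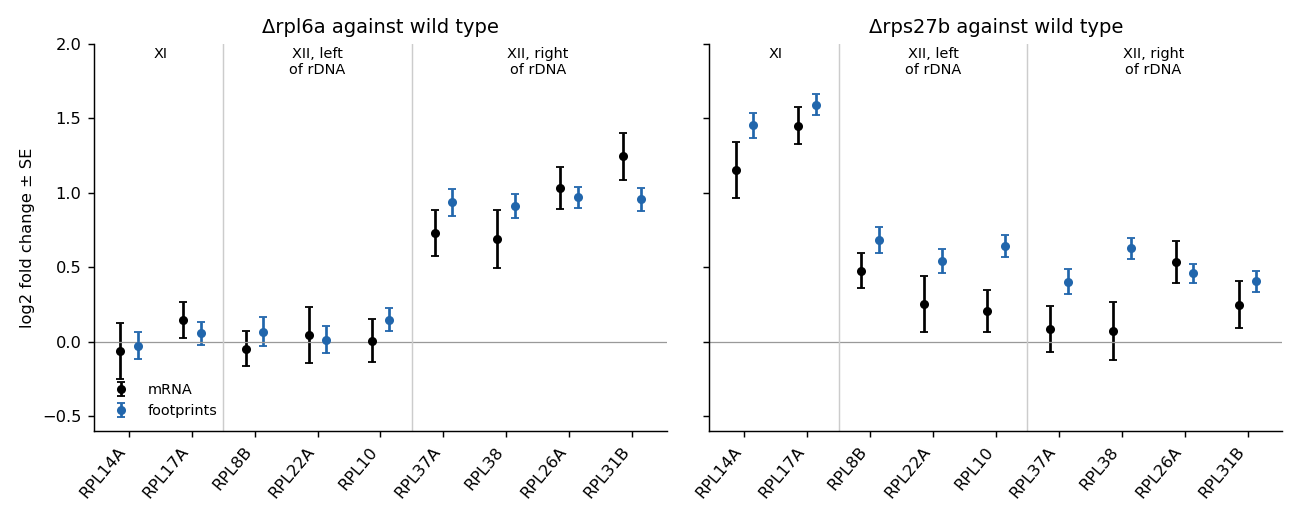
Log2 change against the wild type (vertical, with SE) in mRNA (black) and footprints (blue) of each member on chromosomes XI and XII, in Δrpl6a (left panel) and Δrps27b (right panel). The members right of the ribosomal DNA array in Δrpl6a lie between 0.69 and 1.24 in mRNA, and those to the left lie between -0.04 and 0.04.

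In Δrpl15b the mRNA changes of the members were small but nearly all negative, and no member passed in either assay. By edgeR no member passed in mRNA (0.291% of genes were lower and 0.364% higher). At an unadjusted p below 0.05 6 were lower and 0 higher (5.74% of genes were lower), and DESeq2 gave 0. All members but RPL3 (0.10), RPL4A (0.09) and RPL4B (0.01) had a negative change, with a median of -0.25, and 39 lay below the wild type without overlap (11.7% of genes). The median member stood at -0.19, -0.24 and -0.32 in the 3 libraries. Small-subunit genes had a median of -0.24, also with none passing, and the other large-subunit genes -0.22, with the deleted RPL15B the single gene lower. RPL33B (-0.50), RPL14B (-0.45) and RPL36A (-0.43) had the largest negative values. RPL14B was at 246, 263 and 266 CPM beside 355, 356 and 348 in the wild type, without overlap. In footprints the median was -0.04 and 0 members passed by edgeR (1.16% of genes were lower and 1.97% higher), with 4 lower at an unadjusted p below 0.05 (10.5% of genes) and 0 by DESeq2. Translation efficiency had a median of 0.22, with 0 members passing by edgeR (0.188% of genes were higher and 0.0376% lower), 7 higher at an unadjusted p below 0.05 (5.11% of genes) and 0 by DESeq2. No pair shifted by 0.25 or more in log2(A/B) in either assay.

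**Figure D5:**
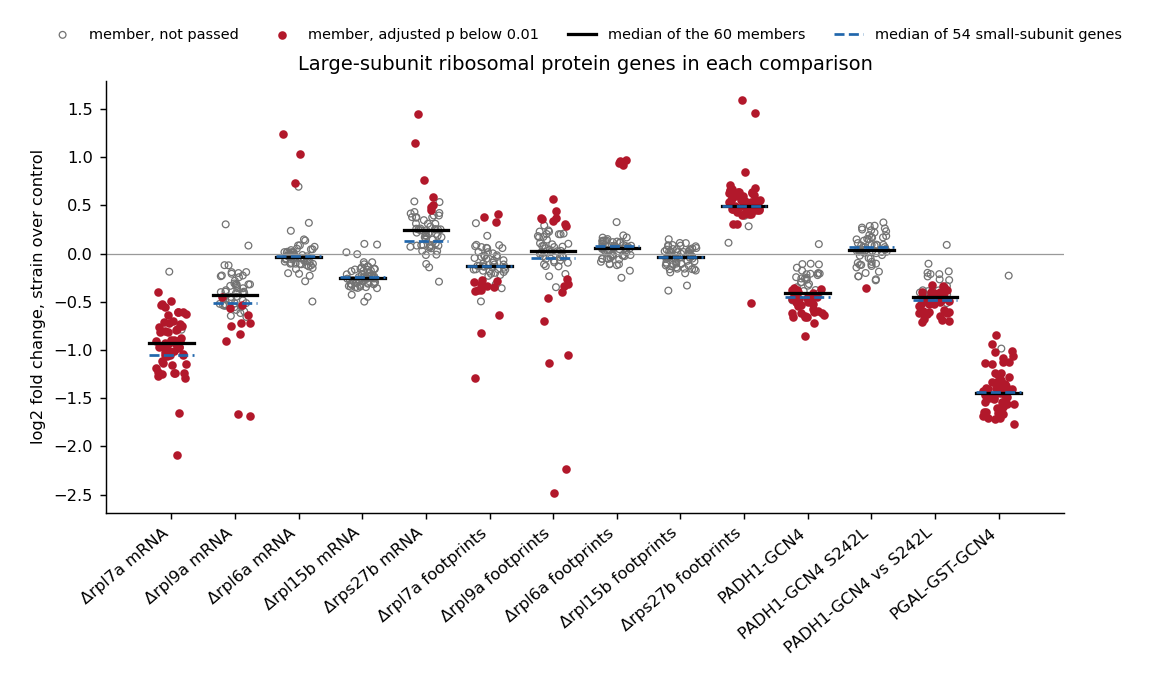
Log2 change of each of the 60 members in each mRNA and footprint comparison, 1 point per member (filled red when the adjusted p is below 0.01), with the median of the members as a black line and that of the 54 small-subunit genes as a dashed line. The medians run from -1.44 in PGAL-GST-GCN4 and -0.92 in Δrpl7a mRNA to 0.49 in Δrps27b footprints.

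The Gcn4 strains asked whether more of this transcription factor alone changes the same mRNAs. In PADH1-GCN4 34 members were lower (15.7% of genes) and none higher (19.4% of genes, 0 members at an unadjusted p below 0.05 and 0 by DESeq2), with a median of -0.41 and no member beyond 2-fold. The groups did not overlap for 48 (27.4% of genes). The small-subunit genes had a median of -0.45 with 37 lower, and the other large-subunit genes -0.43 with 12 of 21 lower. The share of the members in all counts was 9.80% in place of 13.2%. All 4 stalk genes were lower (median -0.52) and so were 9 of the 12 outer and small proteins (-0.54). Of the shell genes 10 of 18 were lower (-0.37), of the tunnel genes 6 of 14 (-0.39), of the interface genes 4 of 9 (-0.38) and of the single-copy genes 2 of 10 (-0.36). RPL14B fell furthest, from 609, 576 and 596 CPM to 335, 335 and 312 (-0.86, SE 0.08, adjusted p = 2.3e-06), followed by RPL26B (-0.72) and RPL23A (-0.66). RPL14A went from 1385, 1267 and 1487 CPM to 904, 835 and 906 (-0.65), so both copies were below their wild type. RPL4B (0.10), RPL22B (-0.11) and RPL5 (-0.11) were nearest to 0 or above it.

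RPL22 was the pair that shifted most in PADH1-GCN4, in the direction opposite to Δrpl7a. RPL22A went from 3116, 3658 and 3084 CPM to 1965, 2138 and 2341 (-0.61), while RPL22B was at 172, 202 and 185 CPM and then at 172, 180 and 168. Only the A copy was clear of its wild type. The A share was 92.5% in place of 94.6%, a log2(A/B) shift of -0.51 beside a median size of 0.17 over the pairs. RPL11 (-0.40) and RPL26 (0.33) came next. Both copies were lower in 10 pairs, 1 copy in 12 and neither in 3.

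With the S242L form of Gcn4 the members stayed near the wild type. RPL14B alone was lower (4.89% of genes), at 477, 430 and 485 CPM (-0.36, SE 0.08, adjusted p = 0.0056), between its wild type and PADH1-GCN4 without overlap with either. No member was higher by edgeR (8.3% of genes), with 6 higher at an unadjusted p below 0.05 (18.6% of genes) and 0 by DESeq2. The members' median was 0.04, with RPL30 (0.32), RPL32 (0.29) and RPL10 (0.29) at the top and RPL31B (-0.28) and RPL34B (-0.27) above RPL14B at the bottom. The RPL14B call was lost when wild-type replicate 1, 2 or 3 or S242L replicate 1 or 2 was left out. The largest pair shifts were those of RPL27 (-0.38), RPL31 (0.37) and RPL36 (-0.34). Tested directly against S242L, whose counts came from another table, PADH1-GCN4 had 40 members lower (9.67% of genes) and none higher (13.1% of genes, 0 members at an unadjusted p below 0.05 and 0 by DESeq2), with a median of -0.45, and 51 lay below S242L without overlap (21.3% of genes). RPL30, which in yeast binds its own transcript, had 1396, 1212 and 1469 CPM in PADH1-GCN4 and 2495, 1948 and 2235 in S242L (-0.71). RPL26B (-0.69) and RPL1A (-0.69) followed, and RPL4B (0.09) was the highest. Of the small-subunit genes 40 were lower, with a median of -0.48. The count of members was 21 without S242L replicate 2, and 24 to 26 without any of PADH1-GCN4 replicates 1 to 3 or S242L replicate 3.

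PGAL-GST-GCN4 had the lowest median of the comparisons made. 58 of the 60 were lower (14.7% of genes) and none higher (18.9% of genes, 0 members at an unadjusted p below 0.05 and 0 by DESeq2), 56 of them by more than 2-fold (9.45% of genes), with a median of -1.44. The share of the members in all counts was 3.73% in place of 9.88%. The small-subunit genes had 53 of 54 lower and the same median, and the other large-subunit genes 18 of 21 lower with -1.38. All 14 tunnel genes (-1.46), all 18 shell genes (-1.38), all 4 stalk genes (-1.38) and all 3 genes around the 5S rRNA (-1.24) were lower. RPL37B fell furthest, from 1662, 1326 and 2350 CPM to 643, 409 and 516 (-1.77), with RPL30 and RPL14A next (both -1.71). The groups did not overlap for 59 members (28.2% of genes). The libraries of the strain themselves differed, with the median member at -1.05, -1.77 and -1.58 relative to the control mean, and without replicate 3 of the strain 24 members passed.

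RPL22B was the exception in PGAL-GST-GCN4. It was at 557, 309 and 481 CPM in the control and at 497, 323 and 329 in the strain (-0.23, adjusted p = 0.49), with overlapping groups, while RPL22A went from 2282, 2118 and 2834 to 1057, 545 and 655 (-1.68). The A share of the pair was 65.8% in place of 84.4%, a shift of -1.51. RPL26A fell least among the members that passed (-0.85), from 730, 626 and 741 CPM to 480, 345 and 337, and its share of the RPL26 pair was 39.7% in place of 27.3%. RPL10, which joins last in the cytoplasm, went from 4304, 3203 and 4374 CPM to 2448, 1711 and 1841 and just missed the threshold (-0.99, adjusted p = 0.011). Its groups did not overlap. The libraries of the RPL8 pair, with the third largest shift (-0.59), overlapped in A share.

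The 500 bases upstream of the start codons were searched on both strands for short binding motifs. A match to either of 2 Rap1 motifs, ACCCNNACA and a longer variant, was found for 33 members (55.0%), beside 7.21% of 6006 genes searched. ACCCNNACA occurred in 28 (46.7% beside 5.46%) and the longer Rap1 variant in 14 (23.3% beside 2.23%). The Fhl1 motif GACGCA occurred in 12 (20% beside 11.0%). The Gcn4 motif TGACTCA occurred upstream of 1 member, RPL14B (1.67% beside 4.01%), and the looser TGANTCA, which includes it, upstream of 8 (13.3% beside 11.8%). A match describes the letters only, and binding was not examined here. The study measured Gcn4 binding by ChIP-seq in the PGAL-GST-GCN4 strain, with RPL14B among its example profiles. RPL14B was the member that fell furthest in PADH1-GCN4 and the only one lower in S242L. In PGAL-GST-GCN4 it changed by -1.26, beside a member median of -1.44 and -1.71 for RPL14A, which had no Gcn4 match. RPL14B is shown from 500 to 467 bases before its start codon (chrVIII:103777-103810, plus strand, R64), with the TGACTCA match in capitals.
RPL14B: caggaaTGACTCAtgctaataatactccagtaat
The A share of RPL22 mRNA was higher than in the wild type in Δrpl7a, Δrpl9a and Δrps27b. It was lower in PADH1-GCN4 and PGAL-GST-GCN4, each time without overlap. The RPL22 copies are shown from 250 bases upstream onward (RPL22A chrXII:262944-263093, plus strand, and RPL22B chrVI:65033-65182, minus strand). RPL22A holds a pair of matches to the longer Rap1 variant, and RPL22B holds ACCCNNACA and a TGANTCA match, all in capitals.
RPL22A: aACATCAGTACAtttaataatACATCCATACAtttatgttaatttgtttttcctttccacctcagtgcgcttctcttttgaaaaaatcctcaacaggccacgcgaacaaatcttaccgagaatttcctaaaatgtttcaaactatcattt
RPL22B: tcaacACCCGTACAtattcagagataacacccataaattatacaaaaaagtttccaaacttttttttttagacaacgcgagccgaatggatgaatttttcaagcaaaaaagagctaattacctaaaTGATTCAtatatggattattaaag
The RPL8 copies are shown from 250 bases upstream onward (RPL8A chrVIII:36156-36275 and RPL8B chrXII:48760-48879, both minus strand). RPL8A holds ACCCNNACA and GACGCA, and RPL8B holds no match in this stretch.
RPL8A: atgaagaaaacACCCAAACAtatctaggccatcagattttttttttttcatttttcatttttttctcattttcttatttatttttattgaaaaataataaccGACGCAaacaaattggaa
RPL8B: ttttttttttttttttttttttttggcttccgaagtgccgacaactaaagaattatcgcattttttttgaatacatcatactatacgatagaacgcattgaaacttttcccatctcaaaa
Members with and without a Rap1 match differed little in their median change: -0.97 and -0.89 in Δrpl7a mRNA, -0.44 and -0.38 in PADH1-GCN4 and -1.50 and -1.39 in PGAL-GST-GCN4. The 42 members with an intron and the 18 without one had medians of -0.93 and -0.87, -0.43 and -0.32, and -1.48 and -1.35 in the same comparisons. A and B copies had medians of -0.93 and -0.97 in Δrpl7a mRNA and -0.44 for each in PADH1-GCN4. Coding length, from 156 bases in RPL39 to 1164 in RPL3, had Spearman correlations of -0.09, 0.38 and 0.54 with the change in these 3 comparisons over the 60 members, whose values share the same libraries. Across genes such values are descriptions, since genes are not replicates.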

How the data were processed

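The values used were raw read counts per gene, deposited by the authors as 5 tables. The authors' tables of their own fold changes were not used. The ADH1 promoter strains came in 2 of these, PADH1-GCN4 in one and PADH1-GCN4S242L in the other, each with the same 3 wild-type libraries, whose counts were equal for all 5742 shared genes and were used once. The equal counts show no difference in counting between the tables for the wild type. A difference between these strains and a difference in how their libraries were made cannot be told apart. The same holds for S242L against this wild type, as S242L had no other. By the methods of the study, the authors had trimmed reads with the FASTX toolkit, aligned them to the yeast transcriptome with segemehl and kept uniquely mapped reads, and counted Ribo-seq reads in coding regions only. Whether strand was used in counting is not given in the sources used. The submitters' processing notes name DESeq2 and sacCer3. Reads of near-identical copies are lost by unique mapping, and the files do not show how many. The intervals and spreads cover the libraries of each group, which the study describes as biological replicates.

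Groups followed the labels (50 samples in 17 groups, of which 33 samples were mRNA and 17 Ribo-seq). Counts per library were 5709195 to 12696200 (deletion strains, mRNA), 8092039 to 15437373 (Ribo-seq), 14061819 to 25642672 (ADH1 promoter strains) and 10722664 to 13693442 (plasmid strains), and the lowest count of a member in any library was 98. Counts were scaled by TMM after filterByExpr and tested with glmQLFit and glmQLFTest of edgeR 4.0.16 (limma 3.58.1, R 4.3.3), two-sided, with Benjamini-Hochberg adjustment over all genes tested. Each set of strains was fitted separately, with all its groups in 1 fit. A gene passed at an adjusted p below 0.01, and the count that also exceeded 2-fold is given beside it. Translation efficiency was the interaction of assay and strain in 1 fit of 35 libraries. A shares are counts of the A copy over those of both copies, compared as library values with no test, since an exact permutation test of 3 against 3 libraries cannot go below a p of 0.1. CPM are scaled by TMM, and library shifts are medians of log2(CPM + 0.5) differences. Sequences, coordinates, lengths and introns came from the RefSeq R64 genome, read with Python 3.11.15, pandas 2.3.3 and Biopython 1.88, and figures were drawn with matplotlib 3.10.9. The fit was tested on simulated data.

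The genes named were the 3 highest and 3 lowest members of each comparison, the RPL8, RPL14, RPL22 and RPL24 pairs and the single-copy genes, the 3 pairs with the highest and lowest A share and those that shifted most, and the members on chromosomes XI and XII. The members, lists, motifs and these rules were chosen with earlier results of these data known. RPL2 and RPL33, named for their shift between assays, and the genes listed as lower or higher in both assays were named after their values were seen. The values of 1 member and of its pair are not reported here. Of 7 listed regulators of these genes (RAP1, FHL1, IFH1, SFP1, HMO1, CRF1 and ABF1), 2 were lower and 1 higher in Δrpl7a mRNA, 0 were lower and 1 higher in PADH1-GCN4, and 1 was lower and 2 higher in PGAL-GST-GCN4. The shares of all genes lower and higher in these comparisons are given above. Counts among so few genes do not set the regulators apart from them. Same-numbered replicates deviated together (every correlation over 0.1) in 6 of 14 comparisons, those of deletion strain mRNA and PGAL-GST-GCN4, with correlations from -0.45 to 0.60 over all 14. In these the number was taken to pair the libraries. The main counts come from the fit without this pairing, and those with the replicate block are given as an alternative. The chi-square per gene between replicates was at least 3.11, so no library was counted as a duplicate. Alternatives were DESeq2 1.42.0, other scalings, no filter, no genes of chromosomes XI and XII, fits of the compared groups only, a replicate block and each library left out in turn. The deposited tables held no column of sample values left unused (0 columns).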

Additional observations from a re-analysis of the deposited data

How the results depend on the processing

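No called value changed direction under the alternatives run, but medians near 0 changed sign: S242L (0.04) and Δrpl6a footprints (0.06) under library totals, Δrpl9a footprints (0.03) with chromosomes XI and XII left out (-0.0032), and these 3, Δrpl6a mRNA and Δrpl15b footprints without 1 or another library. Scaling by library totals shifted the median of all genes by 0.12 in Δrpl7a mRNA, -0.14 in Δrps27b mRNA, -0.11 in Δrpl6a footprints and -0.15 in both Δrps27b footprints and S242L. Under it the members' median was 0.10 in Δrps27b mRNA (4 higher), -0.046 in Δrpl6a footprints, 0.35 in Δrps27b footprints, -0.45 in PADH1-GCN4, -0.11 in S242L (4 lower) and -0.35 in PADH1-GCN4 against S242L, and Δrpl9a had 17 members lower in mRNA, 19 higher in footprints and 26 higher in translation efficiency. DESeq2 gave 24 lower in Δrpl9a mRNA and 2 in S242L. The replicate block gave 30 lower in Δrpl9a mRNA, and 29 and 3 members higher in translation efficiency in Δrpl9a and Δrps27b, took the Δrps27b footprint count from 1 lower to 0 and the Δrpl6a mRNA count from 0 lower to 1, and moved no other count of calls by over 1.5 times. Fits of only the compared groups gave 2 lower in Δrpl9a mRNA, 4 higher in its footprints and 2 in its translation efficiency, and 1 in that of Δrps27b. For PGAL-GST-GCN4 this fit is the one reported.

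With each library left out in turn, counts ran from 2 to 37 (Δrpl9a mRNA), 4 to 12 and 6 to 11 (Δrpl9a footprints, higher and lower), 10 to 39 (Δrpl9a translation efficiency), 3 to 5 (Δrps27b mRNA), 7 to 15 (Δrpl7a footprints), 0 to 1 (Δrpl15b footprints, S242L), 21 to 37 (PADH1-GCN4 against S242L) and 24 to 59 (PGAL-GST-GCN4). Medians ran from -1.07 to -0.88 in Δrpl7a mRNA and from -0.47 to -0.38 in PADH1-GCN4. A group left with 1 library is assumed to vary like the others. Over all alternatives 6331 values of named members stayed on the same side of the threshold, 87 came to pass it and 262 no longer passed, and all 249 pair shifts tested without 1 library stayed within their spread. The lowest member count was 98, and near-identical copies limit RPL1, RPL4 and RPL35 as given above.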
